A study of Arabidopsis thaliana with 12 samples.

Results

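The 60 genes described here differed in array signal between pairs of replicate arrays, in the same direction in wild type and mutant plants. They are 60 of the 691 loci that the arrays measured with a probe naming 1 gene. They were chosen from their values. For each genotype, the log2 ratio of the mean of replicates 1 and 2 over the mean of replicates 5 and 6 was taken from the deposited intensities, and the genes were ranked by the average of the 2 ratios. Of 692 probes naming 1 gene, 52 read 0 on some array and 260 averaged under 0.5. A further 7 genes were left out by the rule, 6 of them otherwise bright enough. Of the 374 eligible genes 312 had 1 sign in both genotypes, 122 above 0 and 190 below. The 30 with the highest average ratio are called the genes higher in replicates 1 and 2, and the 30 with the lowest the genes higher in replicates 5 and 6. Since the ratio chose the genes, its values are a description and carry no test.

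The arrays measured total RNA of Arabidopsis thaliana, ecotype Wassilevskija, from 6 WT samples and 6 samples of the toc160 mutant, whose protein import across the outer chloroplast envelope is impaired. Both groups share the ecotype. The labels give no allele or locus for toc160, no tissue, age or growth condition, and do not say whether the replicates were separate plants, so p-values measure only the spread between these samples. The level of the mutated gene is therefore not reported here.

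Most chloroplast proteins are encoded in the nucleus, made in the cytosol and brought into the plastid by the translocons of the outer and inner envelope, so an import mutant is compared with wild type at the level of nuclear transcripts. Transcripts of photosynthesis genes in leaves are known to follow light, time of day, sugar status and the state of the plastid.

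Replicates 1 and 2, 3 and 4, and 5 and 6 of a genotype were near duplicates of each other. Spearman correlations over all 3439 probes were 0.984 to 0.990 within these pairs and 0.871 to 0.945 between other arrays of the same genotype, so each pair was counted as 1 replicate and a genotype has 3. What the pairs were (plants, extractions or hybridisations) is not given. Intensities are in the deposited linear scale, with a maximum of 100 on each array. Precision is limited by how few arrays there are. The array medians were 0.477 to 0.551 in WT and 0.627 to 0.646 in toc160, and within WT replicates 5 and 6 had the highest. Over the 374 eligible genes the median log2 ratio of replicates 1 and 2 over 5 and 6 was -0.16 in WT and -0.05 in toc160. Those medians are the background against which the values below are to be read.

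The ratio also followed the probe's number in the deposited table, a pattern looked for after the values were seen. Over all 1998 probes averaging at least 0.5, named or not, the median log2 ratio for numbers from 800 to below 2300 was -0.52 in WT and -0.26 in toc160. Below 800 it was -0.02 in WT and 0.04 in toc160, and from 2300 on it was 0.02 and 0.06. Of the genes higher in replicates 5 and 6, 19 of 30 had a number in the stretch from 800 to below 2300, which held 120 of the 374 eligible genes (32.1%). Only 1 of the 30 genes higher in replicates 1 and 2, AT2G47360, lay there. The limits of the stretch were set after the values were seen, and the genes are the extremes of the same ratio. These counts therefore carry no test. The part of probe number in the choice of the 60 genes was not tested, and the values less those of neighbouring probes are given after the genes themselves.

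**Figure D1:**
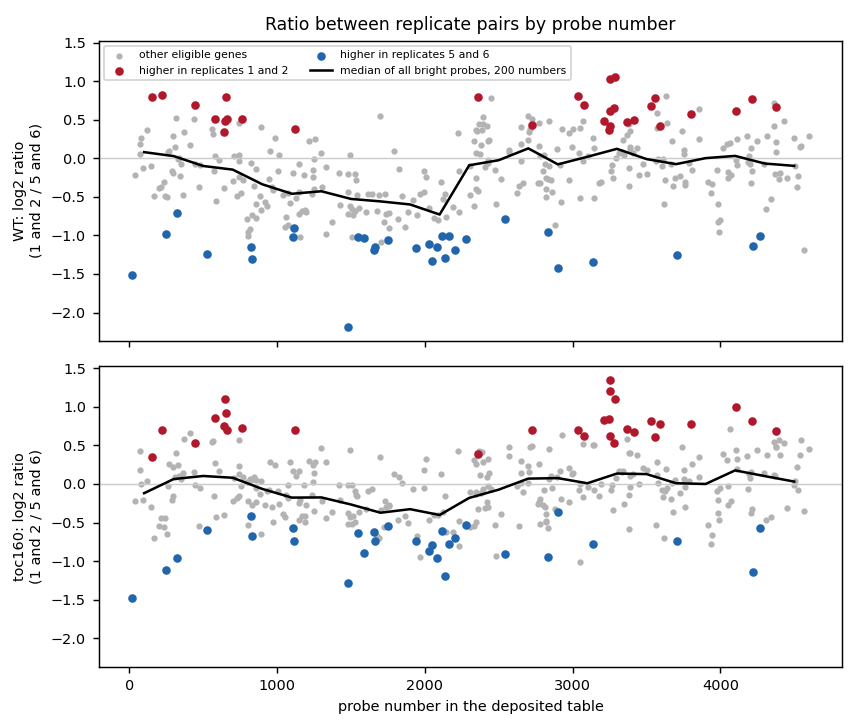
Log2 ratio of replicates 1 and 2 over replicates 5 and 6 (y axis) against probe number in the deposited table (x axis) for the eligible genes, WT above and toc160 below. The black line is the median of all probes averaging at least 0.5, in steps of 200 numbers. It dips between 800 and 2300 in both genotypes, where 19 of the 30 genes higher in replicates 5 and 6 (blue) lie. These limits were set after the values were seen, so the count carries no test.

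Among the genes higher in replicates 1 and 2, the median fold over replicates 5 and 6 was 1.53 in WT (log2 ratio 0.61, range 0.34 to 1.05) and 1.65 in toc160 (log2 ratio 0.72, range 0.35 to 1.35). Only a few of the 60 carry a name in the annotation, 6 by symbol and AT4G03090 and AT1G74470 by another name. The rest are known here by locus alone, and no role is given for them. Named genes of this set were PSBW (subunit W of the photosystem II reaction centre), AT1G74470 (geranylgeranyl reductase, which makes the phytyl side chain of chlorophyll and tocopherol), CUTA (a chloroplast protein of a copper-binding family), XERICO (a RING-type protein linked to abscisic acid levels), MAMI (membrane-associated, mannitol-induced) and AT4G03090 (NDX, a homeobox protein). Signal of every gene of the set on replicates 1 and 2 lay above that on replicates 5 and 6, without overlap of arrays, in both genotypes. The rule itself favours this and the share over all eligible genes was not counted, so nothing is read from it. In such bulk RNA, fewer cells of a type and less RNA per cell cannot be told apart.

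PSBW read 31.95, 31.37, 24.94, 23.17, 18.88 and 20.67 on WT arrays 1 to 6. On toc160 arrays 1 to 6 it read 32.15, 31.80, 31.68, 30.11, 18.56 and 17.68. Replicates 5 and 6 were the lowest in both genotypes, while replicates 3 and 4 lay between the other pairs in WT and next to replicates 1 and 2 in toc160.

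AT4G01810 led the set, with 0.87, 0.87, 0.56, 0.58, 0.43 and 0.42 on WT arrays 1 to 6 and 1.14, 1.14, 0.72, 0.67, 0.34 and 0.56 on the toc160 arrays. Its log2 ratio was 1.03 in WT and 1.35 in toc160. AT1G64430 followed with 0.94, 0.91, 0.69, 0.67, 0.42 and 0.48 in WT and 1.14, 1.04, 0.84, 0.76, 0.50 and 0.51 in toc160. In both genes the 3 pairs did not overlap in either genotype, with replicates 3 and 4 in the middle. For AT2G15440 the 6 WT values were 0.71, 0.68, 0.61, 0.55, 0.47 and 0.44, and the toc160 values 0.98, 0.79, 0.75, 0.76, 0.43 and 0.34. AT1G03810 gave 2.18, 2.46, 1.54, 1.54, 1.16 and 1.51 in WT and 3.09, 3.34, 2.02, 2.10, 1.46 and 1.92 in toc160. There, replicate 6 lay close to replicates 3 and 4 in both genotypes.

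A flat step between the first and second pair was seen for AT1G54500, which read 1.0, 0.98, 1.06, 1.0, 0.67 and 0.62 on WT arrays and 1.12, 1.05, 1.07, 1.03, 0.52 and 0.57 on toc160 arrays. AT3G51930 read 0.61, 0.67, 0.77, 0.77, 0.43 and 0.48 in WT, where replicates 3 and 4 lay above replicates 1 and 2, and 0.91, 0.82, 0.86, 0.77, 0.42 and 0.38 in toc160. In AT1G54500, and in AT3G51930 in toc160, only replicates 5 and 6 stood apart from the other 4 arrays. The homeobox gene AT4G03090 showed the reverse, with 0.61, 0.59, 0.40, 0.41, 0.33 and 0.37 in WT and 0.78, 0.76, 0.44, 0.47, 0.42 and 0.46 in toc160. AT1G50880 did so too, at 2.13, 2.02, 1.30, 1.45, 1.18 and 1.16 in WT and 2.84, 2.96, 2.04, 1.98, 1.77 and 1.78 in toc160. Here replicates 1 and 2 stood apart, and replicates 3 and 4 lay near 5 and 6. The 6 values of AT3G44810 were 0.84, 0.88, 0.73, 0.80, 0.47 and 0.52 in WT and 1.26, 1.20, 1.0, 1.06, 0.75 and 0.76 in toc160.

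Of the other named genes of the set, AT1G74470 had pair means of 2.89, 2.34 and 1.66 in WT and 2.41, 2.38 and 1.85 in toc160, for replicates 1 and 2, 3 and 4, and 5 and 6 in that order. CUTA had 6.33, 6.59 and 4.89 in WT and 3.08, 3.14 and 1.71 in toc160. MAMI had 1.07, 0.97 and 0.80 in WT and 2.10, 1.41 and 1.23 in toc160. CUTA read higher in WT and MAMI in toc160 in every pair; the lowest pair of both was replicates 5 and 6, as the rule favours. XERICO read 8.09, 7.67, 6.04, 6.0, 5.88 and 5.19 in WT and 3.20, 3.18, 2.93, 2.74, 1.97 and 1.94 in toc160.

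**Figure D2:**
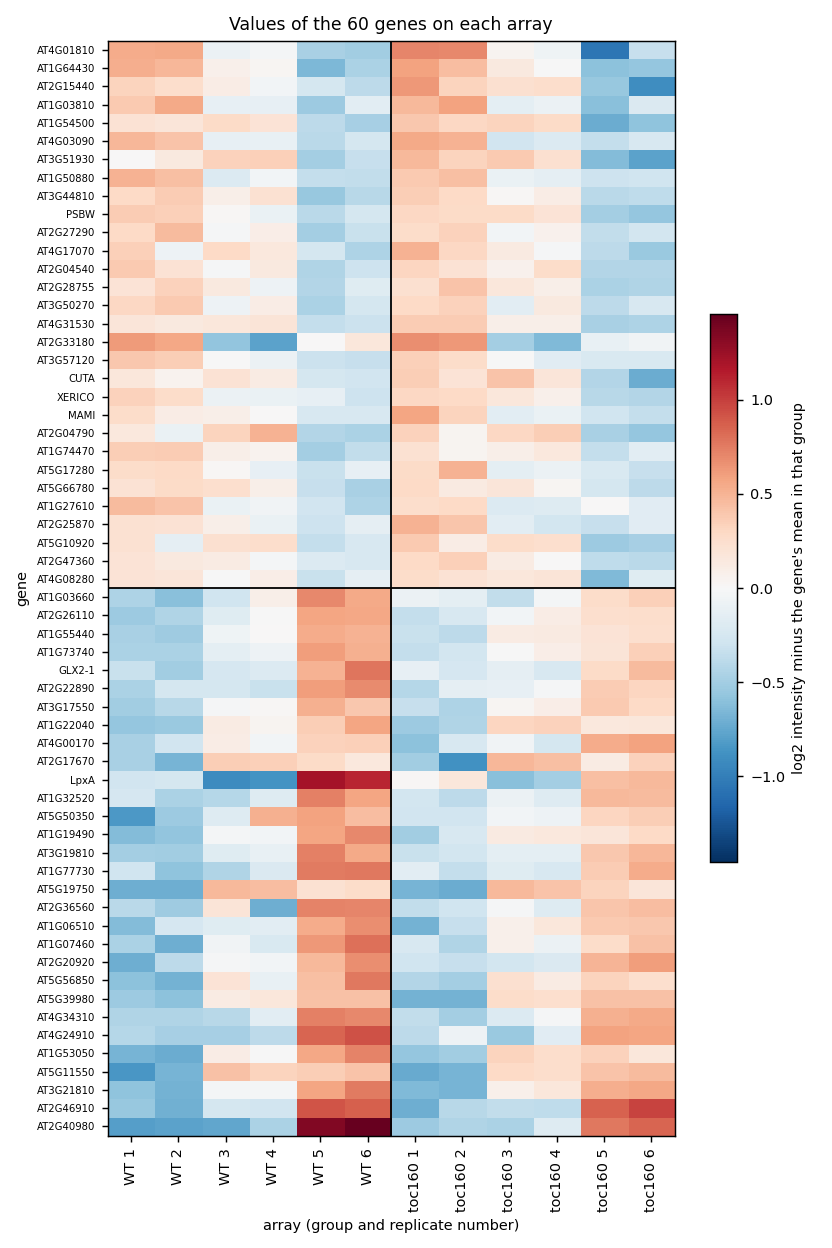
Log2 intensity of each of the 60 genes (rows) on each of the 12 arrays (columns), less that gene's mean in its group, on a colour scale from blue (below the mean) to red (above it). The upper 30 rows are mostly red on replicates 1 and 2 and blue on replicates 5 and 6 in both groups and the lower 30 mostly the reverse, in keeping with how they were chosen. Exceptions include AT2G33180 in WT and LpxA in toc160, where replicates 3 and 4 were the lowest.

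Among the genes higher in replicates 5 and 6 the median fold over replicates 1 and 2 was 2.21 in WT (log2 ratio -1.14, range -2.19 to -0.71) and 1.68 in toc160 (log2 ratio -0.75, range -1.48 to -0.36). Only LpxA (an acyltransferase of the lipid A type pathway, known best from bacteria) and GLX2-1 (annotated as glyoxalase 2-1) have a symbol. As deposited, 27 of the 30 ratios were larger in size in WT than in toc160, against 8 of 30 in the set higher in replicates 1 and 2. After quantile normalization, which gives all arrays 1 distribution, the counts were 19 and 11. Such counts over all eligible genes were not made, and the median ratio of those genes as deposited was -0.16 in WT and -0.05 in toc160. The part of the overall shift of WT replicates 5 and 6, given above, in the deposited counts was not tested further.

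AT2G40980 had the largest ratio of the 60, and read 0.58, 0.59, 0.60, 0.73, 2.57 and 2.77 on WT arrays 1 to 6 and 0.78, 0.84, 0.83, 0.99, 1.93 and 2.03 on toc160 arrays. Replicates 5 and 6 were 4.57-fold above replicates 1 and 2 in WT and 2.44-fold in toc160, with the first 4 arrays close together in each. A like step was seen for AT2G46910, at 0.38, 0.34, 0.46, 0.45, 1.04 and 1.0 in WT and 0.40, 0.49, 0.50, 0.50, 1.18 and 1.28 in toc160 (2.86-fold and 2.78-fold). AT4G24910 read 0.42, 0.40, 0.40, 0.43, 1.0 and 1.06 in WT and 0.48, 0.59, 0.43, 0.55, 0.93 and 0.92 in toc160. Its first 4 arrays overlapped in each genotype and the last 2 lay well above them. AT4G34310 read 0.69, 0.69, 0.70, 0.83, 1.55 and 1.51 in WT and 1.07, 0.97, 1.19, 1.35, 1.96 and 2.01 in toc160.

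In most of the other leading genes of this set, replicates 3 and 4 lay in the middle or near 5 and 6. AT3G21810 read 0.39, 0.36, 0.57, 0.57, 0.87 and 0.98 in WT and 0.46, 0.45, 0.75, 0.80, 1.03 and 1.05 in toc160. For AT5G11550 the values were 0.75, 0.84, 1.82, 1.69, 1.72 and 1.79 in WT and 1.47, 1.53, 2.98, 2.93, 3.26 and 3.35 in toc160. Replicates 1 and 2 alone were low in AT5G11550, in both genotypes. AT1G53050 read 0.70, 0.68, 1.21, 1.12, 1.65 and 1.85 in WT and 0.72, 0.75, 1.33, 1.27, 1.34 and 1.19 in toc160. AT5G39980 gave 0.80, 0.76, 1.26, 1.29, 1.55 and 1.55 in WT and 0.74, 0.74, 1.43, 1.41, 1.60 and 1.60 in toc160. In AT1G53050 replicates 3 to 6 overlapped in toc160 but not in WT, while AT5G39980 kept its pairs apart in both. AT5G56850 read 0.31, 0.29, 0.53, 0.43, 0.63 and 0.79 in WT and 0.39, 0.37, 0.61, 0.56, 0.65 and 0.62 in toc160. AT2G20920 read 0.29, 0.36, 0.46, 0.45, 0.65 and 0.75 in WT and 0.45, 0.43, 0.45, 0.47, 0.77 and 0.83 in toc160, where its replicates 3 and 4 lay at replicates 1 and 2.

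The 2 named genes of this set differed in the middle pair. LpxA had pair means of 0.53, 0.34 and 1.42 in WT and 0.64, 0.41 and 0.83 in toc160, so replicates 3 and 4 were the lowest in both. GLX2-1 had 0.36, 0.42 and 0.76 in WT and 0.63, 0.63 and 0.93 in toc160, with the first 2 pairs level in toc160.

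**Figure D3:**
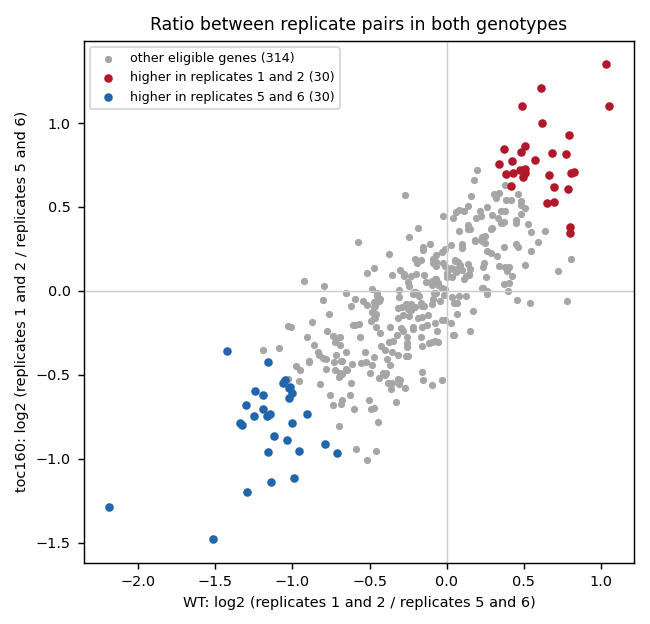
Log2 ratio of replicates 1 and 2 over replicates 5 and 6 in WT (x axis) and in toc160 (y axis), 1 point per eligible gene, with the 60 genes coloured. The cloud of 374 genes runs along the diagonal, and the 60 are its 2 ends, at median ratios of 0.61 and 0.72 (red) and -1.14 and -0.75 (blue).

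Across the 374 eligible genes the ratio in WT and the ratio in toc160 had a Pearson r of 0.82 and a Spearman rho of 0.83, as a description: genes are not independent, and same-numbered arrays may share a position pattern. The 60 genes are thus the ends of a continuous spread and not a separate cluster. Just inside the upper limit the average log2 ratio was 0.55 for AT5G10920, 0.54 for AT2G47360 and 0.52 for AT4G08280. Just outside it was 0.52 for AT3G02690, 0.51 for AT3G29410 and 0.50 for AT4G21820. At the lower limit AT1G55440 (-0.79), AT2G26110 (-0.79) and AT1G03660 (-0.79) lay inside, and AT1G78620 (-0.78), AT4G24160 (-0.77) and AT3G50130 (-0.76) outside.

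Within a pair the 2 arrays differed little: the median absolute log2 difference between them was 0.08 to 0.11 in each set and genotype, with the largest, 0.89, in WT among the genes higher in replicates 5 and 6. The rule chose genes whose other pairs lie far apart, which favours a middle place for replicates 3 and 4. The share of such genes over all eligible genes was not counted. Replicates 3 and 4 themselves did not enter the rule. Their mean lay between the means of the other pairs in both genotypes for 21 of the 30 genes higher in replicates 1 and 2 and for 22 of the 30 higher in replicates 5 and 6. It lay beyond replicates 1 and 2 in both genotypes for CUTA, AT2G04790 and AT5G10920 in the first set and for LpxA in the second. Beyond replicates 5 and 6 in both lay AT2G33180 in the first set and AT5G19750 and AT2G17670 in the second. AT2G33180 read 5.17, 4.98, 2.25, 1.97, 3.36 and 3.76 in WT and 7.80, 7.56, 3.47, 3.14, 4.54 and 4.74 in toc160, so its lowest arrays were replicates 3 and 4 in both. AT5G19750 read 0.72, 0.72, 1.63, 1.61, 1.38 and 1.42 in WT and 1.08, 1.04, 2.38, 2.29, 2.15 and 1.94 in toc160, with its highest arrays there.

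Of the 60 probes 4 averaged above 20, all of genes higher in replicates 1 and 2: PSBW, AT2G27290, AT4G17070 and AT4G31530. Their pair differences were smaller after quantile normalization. As deposited the average log2 ratio was 0.75 for PSBW, 0.70 for AT2G27290, 0.68 for AT4G17070 and 0.65 for AT4G31530. After quantile normalization the differences were 0.30 for PSBW, 0.51 for AT2G27290, 0.23 for AT4G17070 and 0.18 for AT4G31530. In WT, AT4G31530 then had the same log2 value, 5.38, in replicates 1 and 2 as in replicates 5 and 6. Of the genes higher in replicates 1 and 2 the other 29 kept their direction in both genotypes after quantile normalization, as did all 30 of the other set, and all 60 did under median centring and under cyclic loess.

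The neighbours in the deposited table moved the same way as many of the genes, but less. The median log2 ratio of the 25 bright probes on each side was -0.53 in WT and -0.22 in toc160 around genes higher in replicates 5 and 6, and 0.09 and 0.15 around genes higher in replicates 1 and 2. Less that neighbours' median, the ratio of the genes higher in replicates 5 and 6 had a median of -0.61 in WT and -0.54 in toc160. For the genes higher in replicates 1 and 2 it was 0.57 and 0.69. All 30 genes of each set kept their sign in both genotypes. The genes are the extremes of the ratio, so smaller medians of neighbours and kept signs are favoured by the choice and carry no test. Ranked by the ratio less that of neighbours, 21 of the first set and 15 of the second were still among the 30 at their end. AT2G46910 kept its size, at -1.65 in WT and -1.43 in toc160, with neighbours at 0.13 and -0.05. AT1G06510, in the stretch from 800 to below 2300, went from -1.04 to -0.46 in WT and from -0.89 to -0.63 in toc160.

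**Figure D4:**
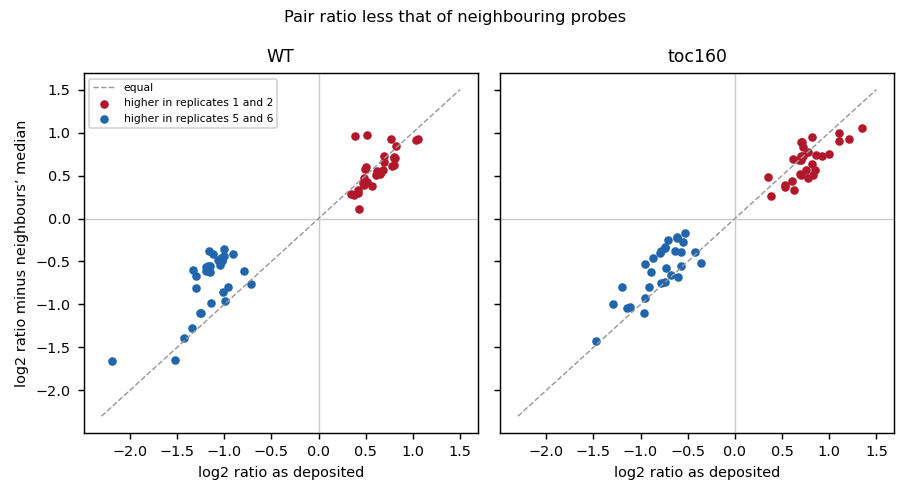
Log2 ratio of replicates 1 and 2 over 5 and 6 as deposited (x axis) against the same ratio less the median of 25 bright probes on each side in the table (y axis), WT left and toc160 right, 1 point per gene. Red points lie on both sides of the dashed line of equality, and most blue points in WT lie above it (median -1.14 as deposited and -0.61 less neighbours). No point crosses 0, which the choice of extreme ratios favours.

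The probe number showed a second pattern, by its remainder on division by 6, also looked for after the values were seen. Over the bright probes with remainder 0 the median log2 ratio was -0.31 in WT and -0.41 in toc160 (92 probes), and with remainder 4 it was 0.03 and 0.05 (376 probes). Remainder 0 held 0 of the 30 genes higher in replicates 1 and 2 and 4 of the 30 higher in replicates 5 and 6, with 6.95% of the eligible genes. Remainder 1 held 10 of the first and 3 of the second (19.5% of the eligible genes), and remainder 4 held 9 and 2 (18.7%). Remainder 3 held 4 and 10 (18.4%), remainder 2 held 3 and 4 (18.4%) and remainder 5 held 4 and 7 (17.9%). For remainders 2, 3 and 5 the medians over bright probes were -0.23, -0.23 and -0.22 in WT and -0.07, -0.09 and -0.09 in toc160. The counts of genes by remainder reuse the ratios that chose the genes and carry no test. With neighbours of the same remainder only, the medians were 0.57 and 0.68 for the first set and -0.69 and -0.45 for the second, in WT and toc160, and 17 genes of each set stayed among the 30. Shorter runs, picked after the values were seen, are given without a count of other runs of that length, so they carry no test. Those from 3200 to below 3300 held 7 genes higher in replicates 1 and 2, CUTA and the 3 leading genes among them, of 11 eligible genes. Numbers from 600 to below 700 held 4 of 6, XERICO among them. The labels and the table do not say what the number stands for on the array.

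A single locus of the 60, AT2G25870, was measured by a pair of probes, which did not move together. The probe in the set had log2 ratios of 0.43 in WT and 0.70 in toc160. The other had -0.28 and 0.10. Both probes name the same gene alone, so the pair difference of AT2G25870 rested on 1 of its probes. The genotype fit below used the average of both.

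Photosynthesis was the only one of 10 gene lists with measured members, 6 of 64 listed. The lists for clock and light, heat shock, cold and abscisic acid, wounding and jasmonate, touch and sugar starvation had none, nor had those of seed, root and flower markers, so the tissue could not be checked. PSBW was the 1 photosynthesis gene among the 60, from which the rule kept others out by name, as given below. In both genotypes 3 of the 6 were higher in replicates 1 and 2: PSBW, LHB1B2 (a light-harvesting chlorophyll-binding protein; log2 ratio 2.16 in WT and 0.30 in toc160) and PRK (phosphoribulokinase of the Calvin cycle; 0.41 and 0.71). SBPASE (sedoheptulose-bisphosphatase of the same cycle; -0.73 and -0.42) and PSBY (a small photosystem II subunit; -0.65 and -0.47) went the other way in both, and both have probe numbers in the stretch from 800 to below 2300. PSAN (a photosystem I subunit) had 1.27 in WT and -0.27 in toc160. LHB1B2, PSAN and PRK were among the genes the rule left out by name, so they could not be among the 60. LHB1B2 and PRK read no 0 and averaged 5.45 and 0.54. The averages of their 2 ratios lay above the upper limit of 0.52, and that of LHB1B2 also above the 1.19 of AT4G01810. The single photosynthesis gene among the 60 therefore reflects the rule as well as the values.

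The comparison of toc160 with WT did not enter the choice of the genes and was tested over all 691 loci with limma on pair averages, 3 against 3. It called 3 loci (0.434%) at an adjusted p of 0.05, and 0 of the 60 genes. At an unadjusted p under 0.05 there were 5 of the 60, against 11.1% of all loci. The median log2 difference, toc160 minus WT, was 0.03 in the genes higher in replicates 1 and 2, -0.05 in those higher in replicates 5 and 6, and 0.03 over all loci. As deposited the 3 medians were 0.25, 0.19 and 0.33, so the sign of a small difference depends on the scaling.

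After quantile normalization the median size of the pair difference was 0.78 and that of the genotype difference 0.16 on the log2 scale. The choice of the genes by their pair ratio fixes large pair differences, so nothing is read from this gap. On that scaling the genotype difference was the larger in 7 genes, all higher in replicates 1 and 2: PSBW, AT2G27290, AT4G17070, AT4G31530, AT2G33180, CUTA and XERICO. The count depends on the scaling and was not made as deposited. There PSBW had an average pair ratio of 0.75 and a genotype difference of 0.08. XERICO had 0.61 and -1.30, and AT4G31530 0.65 and -1.39. Choosing genes by their pair ratio also fixes large errors in the fit without a block: the median standard error was 0.33 in the 60 genes and 0.19 over all loci. With the pair as a block it was 0.09 and 0.08. A demand for 1 sign in both genotypes also limits the spread left in that fit.

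**Figure D5:**
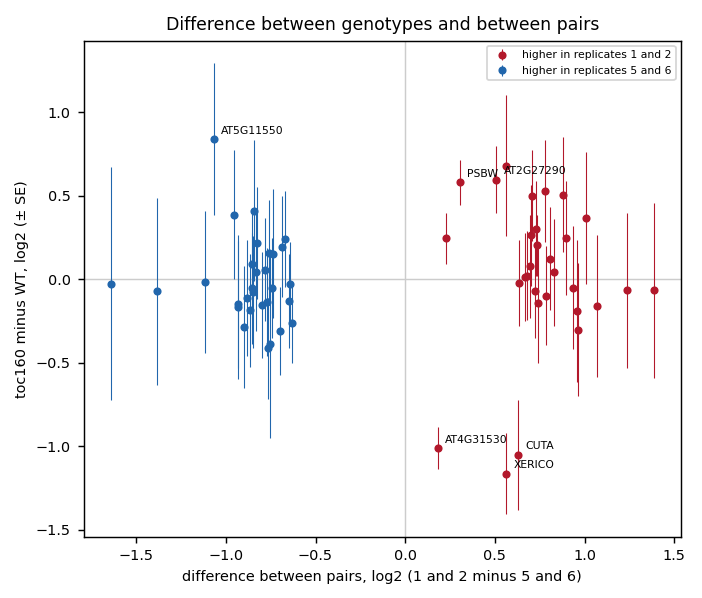
Log2 difference between replicates 1 and 2 and replicates 5 and 6, averaged over genotypes (x axis), against the log2 difference toc160 minus WT with its standard error from the fit without a block (y axis, bars), after quantile normalization, 1 point per gene. The blue points spread along x and run from -0.41 to 0.41 in y, except AT5G11550 (0.84), and XERICO, CUTA and AT4G31530 lie lowest among the red points.

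With the pair as a block, limma called 12 loci (1.74%), of which PSBW was the 1 gene of the 60; 19 of the 60 had an unadjusted p under 0.05, against 26.9% of all loci. PSBW was higher in toc160 by 0.58 on the log2 scale (SE 0.13 without and 0.04 with the block). Its limma adjusted p was 0.185 without the block and 0.0404 with it, and the difference was 0.52, 0.59 and 0.63 in the 3 pairs. This difference came with quantile normalization. As deposited, PSBW averaged 25.2 ± 6.02 in WT and 27.0 ± 7.71 in toc160 (SD, 3 pairs), a log2 difference of 0.08 (limma adjusted p = 0.894, and 0.631 with the block). With median centring it was -0.24 (limma adjusted p = 0.878, and 0.179 with the block). No genotype difference of PSBW holds across these scalings.

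The other genotype values named here were chosen after they were seen, as those with an unadjusted p under 0.05 without the block, and AT5G11550. AT4G31530 was lower in toc160, at 18.4 ± 5.05 against 47.6 ± 8.81 in WT (intensity, SD, 3 pairs), with log2 differences of -0.86, -0.95 and -1.22 in the 3 pairs. The log2 difference of -1.01 (SE 0.12) had a limma adjusted p of 0.0578 without and 0.0626 with the block. XERICO was at 2.66 ± 0.63 in toc160 and 6.48 ± 1.24 in WT, with a log2 difference of -1.16 (SE 0.24) and a limma adjusted p of 0.144 without and 0.0842 with the block. Its 6 toc160 arrays, 1.94 to 3.20, lay below its 6 WT arrays, 5.19 to 8.09. CUTA was at 2.64 ± 0.81 in toc160 and 5.94 ± 0.91 in WT, with a log2 difference of -1.05 (SE 0.33; limma adjusted p = 0.324, and 0.109 with the block). All 3 genes missed the threshold in both fits. As deposited, every toc160 array of each lay below every WT array. The genes were picked by their genotype p-values and arrays of a pair are near duplicates, so nothing is read from this. The share of all loci so separated was not counted. Other settings called these genes. With median centring, limma without a block called AT4G31530 (-1.72, adjusted p = 0.0359) and XERICO (-1.62, adjusted p = 0.0359), and with a mean of at least 0.5 it did so too (adjusted p = 0.0128 and 0.0207). With the block, limma called AT4G31530, XERICO and CUTA as deposited (adjusted p = 0.0203, 0.0211 and 0.0255), with cyclic loess (0.0435, 0.0181 and 0.0435) and with median centring.

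In toc160 AT2G27290 averaged 60.9 ± 12.7 and in WT 47.8 ± 12.7, with overlapping arrays and a log2 difference of 0.60 (SE 0.20; limma adjusted p = 0.357, and 0.0853 with the block). That difference was 0.37 as deposited and 0.04 with median centring (limma adjusted p = 0.387 and 0.983). AT5G11550 averaged 2.59 ± 0.96 in toc160 and 1.44 ± 0.55 in WT (log2 difference 0.84, SE 0.45; limma adjusted p = 0.674, and 0.0853 with the block). The 3 pairs gave 0.64, 0.80 and 1.09 for AT5G11550, and with median centring its difference was 0.53 (limma adjusted p = 0.704). For AT5G11550 the gap between pairs, averaged over genotypes, was -1.07 on the log2 scale after normalization. The gene was chosen by its pair ratio, so nothing is read from that gap being wider than the gap between genotypes.

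Counts of calls depended on the filter and the block. Among the 380 loci with a mean of at least 0.5, limma with the pair as a block called 99 (26.1%), and 18 of the 60 genes. Of these 11 were higher in toc160, against 13.7% of the bright loci, and 7 lower, against 12.4%. At an unadjusted p under 0.05 there were 25 of the 60, against 34.7%. The shares of the 60 lie near those of all bright loci. In that fit, after quantile normalization, XERICO, CUTA and AT4G31530 were among the 7 called lower. Among the 11 called higher were AT5G11550 (limma adjusted p = 1.6e-07), AT2G33180 (3.9e-06), AT2G27290 (3.9e-05), PSBW (4.2e-05) and MAMI (2.7e-04; 0.53, SE 0.11). In this fit of bright loci, limma took each gene's error mostly from the spread shared over loci. Its prior degrees of freedom, the weight of that shared spread, were 30.3, against 0.84 with the block over all loci. The small p-values thus rest little on the spread of a gene's own 3 pairs. With the block over all loci, the limma adjusted p of AT5G11550 was 0.0853. With each array counted as a replicate, 6 against 6, limma called 72 loci (10.4%), and 5 of the 60. Of the 5, 2 were higher in toc160 (4.92% of all loci) and 3 lower (5.5%), but such p-values count near duplicates as separate samples.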

How the data were processed

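Intensities of 3439 probes on 12 arrays were taken as deposited by the authors, on a linear scale with no source stating their background correction or scaling. The platform annotation gives a single gene for 692 probes, more than 1 for 870, and no gene for 1877. By gene ID 690 matched the reference, TAIR10.1 by its header, and 691 loci remained after averaging the only locus with more than 1 probe. No coordinates or sequences are given. The 60 genes and the gene lists were chosen with earlier results of these data known, and all 60 may be named, with values on every array for the 10 highest and 10 lowest.

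Pair ratios used deposited values. For the genotype fit, values were raised to the 1st percentile of positive intensities (0.0364), log2 transformed and quantile normalized over all probes, since array medians differed by 0.44 on the log2 scale. Replicates 1 and 2, 3 and 4, and 5 and 6 were averaged and fitted with limma 3.58.1 in R 4.3.3, two-sided, with Benjamini-Hochberg adjustment over 691 loci at 0.05. Same numbers were treated as pairs because the deviations of WT and toc160 pair averages from their group means correlated at 0.80, 0.57 and 0.73 across loci. Correlations between unlike numbers were not taken, so whether same numbers match better was not tested. The part of the probe-number pattern in these correlations was not tested either. The block was thus chosen from these same data. The script was tested on simulated data. Alternatives covered the block, arrays as replicates, scaling, the floor, dim loci, all probes and leaving out pairs.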

Additional observations from a re-analysis of the deposited data

How the results depend on the processing

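Limits: each genotype has 3 independent pairs at most, many of the 60 probes are dim, and what the replicate pairs and probe numbers stand for is not given. The cause of the changes below was not tested. Loci called between genotypes were 3 in the fit reported, 12 with the replicate block, 72 with 6 arrays per group, 196 with these and the block, 30 as deposited, 11 with median centring, 17 with a mean of at least 0.5, 99 with that and the block, 5 with the floor at the 5th percentile, 76 of all probes and 0 on leaving out any pair. Genes of the 60 called were 0 in the fit reported and 1, 5, 21, 0, 2, 2, 18, 0, 1 and 0 in the same order of settings. With the block and other scalings, chosen after seeing the data, calls were 256 loci and 19 of the 60 as deposited, 70 and 6 with median centring, and 21 and 4 with cyclic loess. The median genotype difference of the genes higher in replicates 1 and 2 was 0.03, but 0.25 as deposited, -0.074 with median centring (both with and without the block) and 0.031 to 0.089 on leaving out 1 pair. For the genes higher in replicates 5 and 6 it was -0.05, but 0.19, -0.13 and, with cyclic loess, -0.082, and -0.070 to -0.016 on leaving out 1 pair. PSBW turned to -0.24 with median centring, with and without the block. Pair ratios of the genes higher in replicates 1 and 2, 0.61 in WT and 0.72 in toc160, were 0.71 and 0.83 with quantile normalization, 0.80 (WT) with median centring, 0.72 and 0.77 with cyclic loess, 0.58 to 0.62 and 0.72 to 0.79 with 1 array per pair, 0.57 (WT) less neighbours and 0.57 and 0.68 less neighbours of the same remainder. Those of the genes higher in replicates 5 and 6, -1.14 and -0.75, were -0.88 (WT) with quantile normalization, -0.96 and -0.71 with median centring, -0.98 and -0.71 with cyclic loess, -1.11 to -1.10 and -0.74 to -0.74 with 1 array per pair, -0.61 and -0.54 less neighbours and -0.69 and -0.45 less neighbours of the same remainder. The subtraction of neighbours was chosen after seeing the data. None of these medians of pair ratios changed sign, which the choice of the genes by that ratio favours. Replicates 3 and 4 lay between the other pairs for 18 to 22 of the genes higher in replicates 1 and 2 and for 20 of those higher in replicates 5 and 6 with 1 array per pair.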

Other observations

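No array of any of the 60 genes stood apart from the other 5 of its group by Dixon's criterion for 6 arrays, over 120 groups checked, where chance flags about 5%. Arrays of a pair are near duplicates, so a pair that stands apart together is not caught by this criterion. The choice of genes with distant pairs also widens the range, which lowers Dixon's ratio for a single array. The lack of flags was thus favoured in advance and nothing is read from it beside the 5%.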
